A study of Homo sapiens with 9 samples.

Results

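The regions described here are the stretches of the human autosomes where the makeup of newly copied DNA changed past a fixed threshold, in the same direction, in HCT116 and RPE1 cells. HCT116 is a colorectal carcinoma line, and RPE1 is a telomerase-immortalised line from the retinal pigment epithelium. Growing cells of each line, with no other treatment named in the labels, were pulsed with EdU and sorted into early, mid and late fractions of S phase, and the EdU-marked DNA of each fraction was captured and sequenced. HCT116 was done in 1 set of 3 libraries and RPE1 in 2 sets of 3 libraries. Separate cultures for the RPE1 sets are not stated in the labels. Those of HCT116 number the mid and late fractions as replicate 2 and leave the early one without a number.

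Chromosomes are copied in large domains that each have a preferred time in S phase. A domain copied early and its late neighbour are joined by a timing transition region, which is classically described as a stretch crossed by replication forks moving out of the early domain. EdU is a thymidine analogue that is built into DNA as it is made, so the reads of a sorted fraction come mainly from the parts of the genome being copied in it.

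The deposited tables have 3 unnamed count columns per set, and no source used here says which column holds which fraction. They are therefore named by position, as libraries A, B and C, and no direction from early to late is given to any region. Reads were summed to 50 kb windows and each library was scaled to the same total. The share of a library is its part of the scaled reads of the 3 libraries of its set in a window. The change at a window is the library C share 200 kb after it minus that 200 kb before it.

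A window was a member when this change was at least 0.35 in size, which is 35 percentage points, with the same sign in HCT116 and in both RPE1 sets. There were 124 member windows among the 53371 windows where a change could be computed, and among 57633 autosomal windows in all. In 57 of them the library C share rose along the chromosome, and in 67 it fell. Adjacent members with 1 sign were joined, which gave 94 transition regions, 42 rising and 52 falling. All the values below describe windows selected on library C of these same sets, and no test was made on them. With 1 HCT116 set and 2 RPE1 sets, replicate error can be read only from RPE1 set 1 against set 2, and it may be technical.

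The HCT116 set held 27519669 reads, against 35891538 in RPE1 set 1 and 55421713 in RPE1 set 2. A member window held a median of 472.5 reads in HCT116, 600.5 in RPE1 set 1 and 839 in RPE1 set 2. At this depth, the 95% interval of a library C share, a Wilson interval carried over to the scaled share, reached a median of 4.35 percentage points to either side in HCT116, 3.42 in RPE1 set 1 and 2.98 in RPE1 set 2. These intervals cover counting error only.

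The 3 sets differed widely in how many windows passed the threshold. In HCT116 587 windows passed, which was 1.1% of those with a change. RPE1 set 1 had 6657 such windows (12.5%) and RPE1 set 2 had 1535 (2.88%). Both RPE1 sets passed with the same sign in 1522 windows (2.85%), and all 3 sets in the 124 members (0.232%). Nearly all of the windows of RPE1 set 2, 99.2%, also passed in RPE1 set 1, whereas 22.9% of those of set 1 passed in set 2. Over all windows the change had an SD of 0.115 in HCT116, 0.205 in RPE1 set 1 and 0.137 in RPE1 set 2, so a fixed threshold was easiest to reach in RPE1 set 1.

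In the members the size of the change had a lowest, median and highest value of 0.3501, 0.381 and 0.526 in HCT116. The same values were 0.369, 0.550 and 0.738 in RPE1 set 1, and 0.351, 0.396 and 0.494 in RPE1 set 2. Over all windows the median size was 0.045 in HCT116, 0.069 in RPE1 set 1 and 0.056 in RPE1 set 2. The smallest of the 3 changes was 0.3501, 0.3506 and 0.3511 at the members nearest the threshold, and 0.3499, 0.3498 and 0.3497 at the windows just short of it. The members are thus the upper end of a continuous range, with no break at the threshold.

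**Figure D1:**
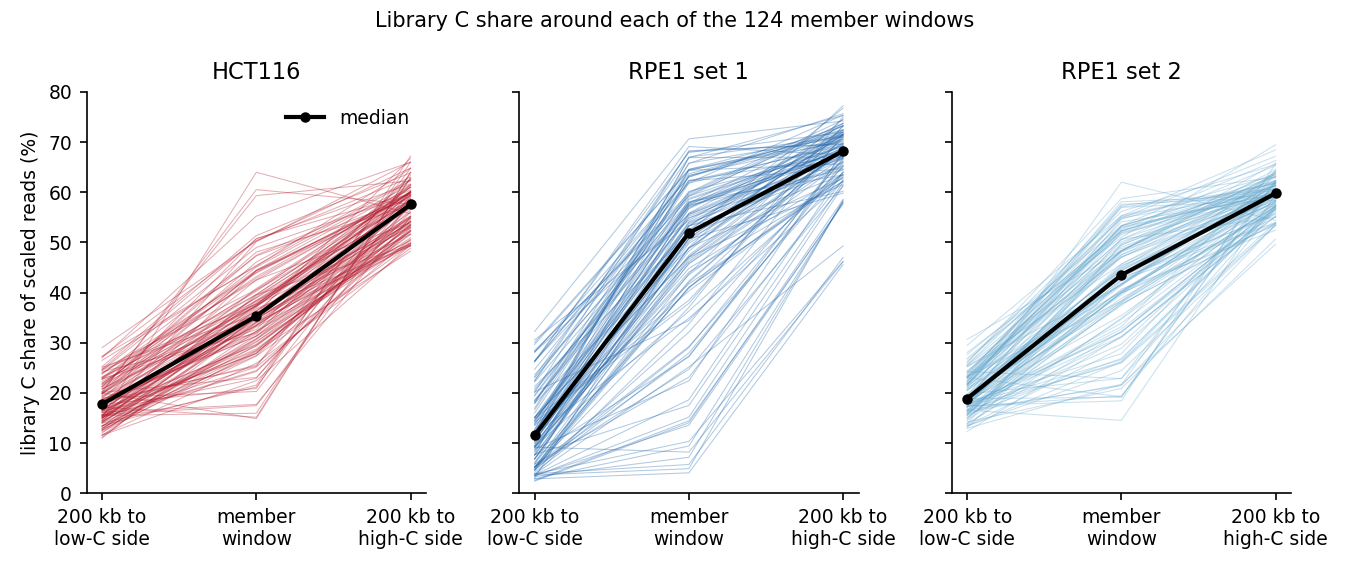
Library C share, in percent of the scaled reads of the set, 200 kb to the low-C side of each member window, in the window and 200 kb to its high-C side. Each thin line is 1 of the 124 member windows, falling ones turned round, and the black line is the median; RPE1 set 1 had the widest spread of levels inside the window.

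Of the 94 regions, 70 were 1 window of 50 kb, 19 were 2 windows (100 kb), 4 were 3 windows (150 kb) and 1 was 4 windows (200 kb). The median length was 1 window with windows of 20, 50 or 100 kb, so the length follows the window size chosen. The regions lay on 18 of the 22 autosomes. Chromosome 2 held 9, and chromosomes 1, 3, 5, 6 and 8 held 8 each. Chromosomes 14, 19, 21 and 22 held none.

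Not all of them were evenly read. A region was called evenly covered when each window from 200 kb before it to 200 kb after it was kept and had between 0.5 and 2 times the median reads of its chromosome in each set, a criterion added after the data were seen. It was met by 77 regions, 34 rising and 43 falling, and by 80.6% of member windows, against 95.1% of all windows with a change. Of the other 17 regions, 4 had a missing window and 13 had windows of unusual depth, with ratios to the chromosome's median between 0.0568 and 132. In all, 14 regions (14.9%) lay within 1 Mb of a chromosome end or of a gap of at least 2 windows, against 3.63% of windows with a change. All 14 were among the uneven ones. The measures of shape below are for the 77 evenly covered regions.

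The flank levels are those at which the library C share stopped moving in the region's direction on either side. On the high-C side it reached a median of 59.9% in HCT116, against 69.3% in RPE1 set 1 and 60.4% in RPE1 set 2. On the low-C side the flank stood at 17.5% in HCT116, at 5.88% in RPE1 set 1 and at 17.2% in RPE1 set 2. The flanks of HCT116 were thus near those of RPE1 set 2, and RPE1 set 1 was the set that stood apart. As a mean over the RPE1 sets, the high-C flank was 64.9% ± 6.27 and the low-C flank 11.6% ± 8.04 (SD, n = 2), and the HCT116 flanks lay within 1 SD of both. Farther out the mean share turned back. At 1000 kb on the high-C side it was 52.6% in HCT116, 55.7% in RPE1 set 1 and 49.8% in RPE1 set 2. At -1000 kb, on the low-C side, it was 29.3% in HCT116, 27.4% in RPE1 set 1 and 29.995% in RPE1 set 2.

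The width of a transition was measured in each set as the distance over which the share, smoothed over 3 windows, kept moving in 1 direction outward from the middle. The lowest, median and highest widths were 400, 600 and 1050 kb in HCT116. They were 250, 550 and 850 kb in RPE1 set 1, and 350, 550 and 850 kb in RPE1 set 2. Over all 94 regions the median was 550 kb in each set. The measured width moved with the window size, averaging 207 kb over the sets with 20 kb windows and 733 kb with 100 kb windows, over the regions found at each size.

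HCT116 was wider than the mean of the RPE1 sets in 48 of the 77 regions, narrower in 25 and equal in 4, and the median difference was 50 kb, which is 1 window. The difference had an SD of 158 kb over regions, and that between RPE1 set 1 and set 2 had one of 147 kb. HCT116 was wider than both RPE1 sets in 33 regions, narrower than both in 12 and within or equal to their range in 32. The mean difference was 62.3 kb, against 14.3 kb between RPE1 set 1 and set 2, whose medians were equal. With 1 HCT116 set, its own replicate spread is unknown.

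The slope is the change between the flanks divided by the width. The change between the flanks had a median of 0.434 in HCT116, 0.643 in RPE1 set 1 and 0.437 in RPE1 set 2. The median slope was 0.695 share per Mb in HCT116, against 1.11 in RPE1 set 1 and 0.775 in RPE1 set 2. The RPE1 mean was 0.943 ± 0.237 share per Mb (SD, n = 2), and the HCT116 value lay 1.05 SD below it. RPE1 set 1 had both the highest change between flanks and the highest slope, while HCT116 and RPE1 set 2 had nearly the same change and differed in median width by 1 window.

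Libraries A and B were not read by the rule, but the 3 shares of a window sum to 100%, so a change in library C must be met by them. On the low-C side both libraries were well represented. Library A had a median of 32.8% there in HCT116, 46.7% in RPE1 set 1 and 44.7% in RPE1 set 2. Library B had 49.1% in HCT116, 45.9% in RPE1 set 1 and 39.5% in RPE1 set 2. The low-C flank was thus led by B in HCT116 and shared more evenly by A and B in RPE1.

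On the high-C side, library A stood at a median of 16.8% in HCT116, 13.5% in RPE1 set 1 and 13.2% in RPE1 set 2. Library B stood at 23.01% in HCT116, 16.9% in RPE1 set 1 and 26.4% in RPE1 set 2. Both libraries lost share across the transition in all 3 sets. In HCT116 the larger loss was in library B, and in RPE1 set 1 and set 2 it was in library A.

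The highest means of the libraries came in the order A, B, C from the low-C to the high-C side in each set. In HCT116 the means were highest for A at -500 kb (34.9%), for B at -200 kb (50.7%) and for C at 450 kb (59.7%), where negative distances are on the low-C side. The library A mean was nearly flat on that side in HCT116, and its highest value was close to its mean over all windows, 33.9%. In RPE1 set 1 they were highest at -350 kb for A (42.8%), at -200 kb for B (49.3%) and at 300 kb for C (69.1%). In RPE1 set 2 the places were -400 kb for A (42.6%), -150 kb for B (45.0%) and 300 kb for C (59.7%). Within 1 Mb of the centre, the maxima of single regions came in the order A, B, C in 46 of 77 regions in HCT116, in 46 in RPE1 set 1 and in 37 in RPE1 set 2.

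**Figure D2:**
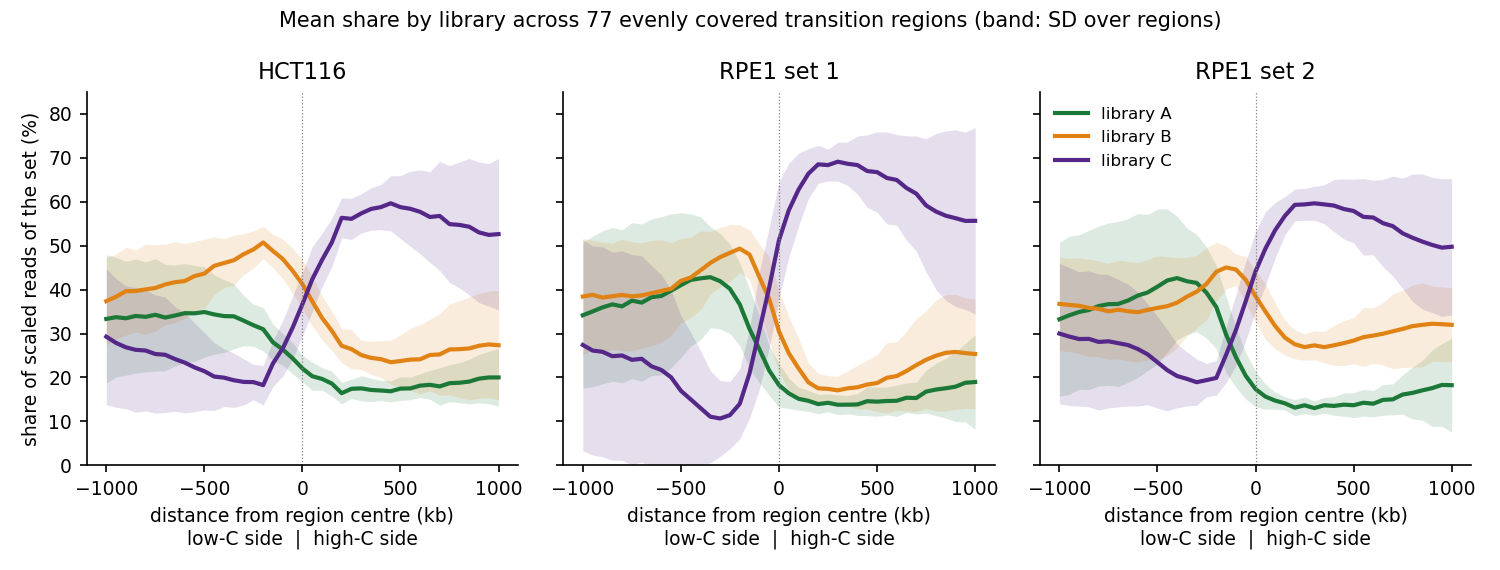
Mean share of libraries A, B and C (percent of scaled reads of the set) by distance in kb from the region centre, over 77 evenly covered regions turned so that the high-C side is on the right; bands are the SD over regions. Library B peaked between -200 and -150 kb in the 3 sets, beside the rise of library C. The rule read library C at 200 kb on either side of each member window.

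The rule read library C near -200 kb, the foot of the slope, which favours a low library C share and a lead of A or B there. At -200 kb library B held the largest share in 77 of 77 regions in HCT116, in 67 in RPE1 set 1 and in 57 in RPE1 set 2, and library A led the others. The share of all windows led by library B is not given here, so these counts do not set the regions apart from other windows. At the centre library B still led in 54 regions in HCT116, against 12 in RPE1 set 1 and 25 in RPE1 set 2, and library C led the rest. At -400 kb library A led in 12 regions in HCT116, against 33 in RPE1 set 1 and 39 in RPE1 set 2.

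At the centre the library B share exceeded the mean of the shares 400 kb to either side by a median of 5.99 percentage points in HCT116 and 4.92 in RPE1 set 2. In RPE1 set 1 this difference was -1.74 points. It was above 0 in 65 regions in HCT116, in 30 in RPE1 set 1 and in 60 in RPE1 set 2. The RPE1 sets disagreed in sign here, so a peak of library B at the centre itself did not hold in both.

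The midpoint of the transition is where the library C share passed the middle between its flanks. In most regions the midpoint lay in a different place in the HCT116 set than in both RPE1 sets. In HCT116 it was nearer the high-C flank than the RPE1 mean by a median of 65.8 kb over the 77 regions, with a range of -93.7 to 196 kb. HCT116 lay beyond both RPE1 sets toward the high-C side in 62 regions, beyond both toward the low-C side in 11 and between them in 4. The RPE1 sets differed from each other by a median of -23.6 kb (set 1 minus set 2), with set 1 nearer the low-C side in 68 regions and nearer the high-C side in 9. The HCT116 difference was larger in size than the RPE1 one in 63 of 77 regions. The regions are not replicates, and the sets of the RPE1 line were also displaced mostly in 1 direction. With 1 HCT116 set, a difference between the lines cannot be told apart from a difference between sets.

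The displacement had the same sign whichever way a region pointed. It had a median of 64.1 kb in the 34 rising regions, with 30 above 0, and of 65.8 kb in the 43 falling regions, with 36 above 0. Stretches low in library C therefore reached farther in the HCT116 set than in the mean of the RPE1 sets at most of these boundaries. The point where library C overtook library B, a measure added after the data were seen, gave 63.1 kb over all regions. The regions were centred by library C of these same sets. With other settings of the rule on library C, the median over all regions found ran from -7.31 kb, over 5 regions, to 94.4 kb. With library A and its sign turned, the midpoint of library A gave 97.9 kb, also over 5 regions.

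**Figure D3:**
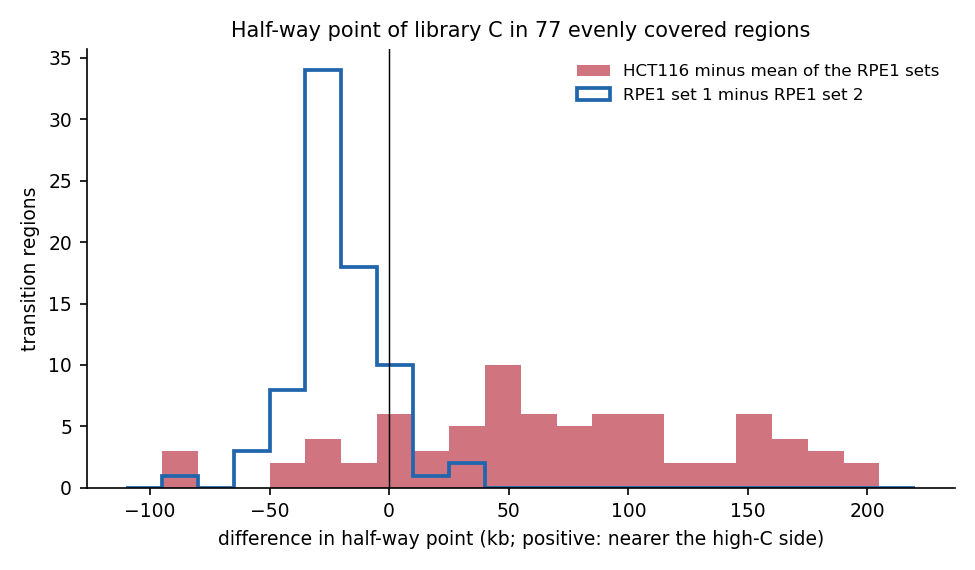
Difference in the midpoint of library C, in kb, for the 77 evenly covered regions: HCT116 minus the mean of the RPE1 sets (filled) and RPE1 set 1 minus set 2 (outline). Positive values are nearer the high-C side; 66 of the HCT116 differences were above 0 and 68 of the RPE1 ones were below it.

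The flanks ran on well past the transition. The high-C flank stayed above the level midway between the flanks for a median of 1450 kb in HCT116, 1250 kb in RPE1 set 1 and 1100 kb in RPE1 set 2. The low-C flank stayed below that level for a median of 1250 kb in HCT116, 850 kb in RPE1 set 1 and 950 kb in RPE1 set 2. Single flanks varied widely. The low-C flank ran from 250 to 24150 kb in HCT116, from 200 to 9850 kb in RPE1 set 1 and from 150 to 9950 kb in RPE1 set 2.

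The summed scaled reads of the 3 libraries changed across the transition too, in opposite directions in the RPE1 sets. They were compared at fixed points 400 kb to either side of the region's middle, not at the flanks defined above. High-C over low-C side, the log2 difference had a median of 0.14 in HCT116, 0.37 in RPE1 set 1 and -0.24 in RPE1 set 2. The high-C side had more reads in 59 of 77 regions in HCT116, in 71 in RPE1 set 1 and in 5 in RPE1 set 2. The part of this difference in the shares was not tested.

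Members were a small part of the transitions of either line. The 1522 windows past the threshold in both RPE1 sets were chosen without HCT116, which allows its change there to be described, taken in the RPE1 direction. Its median was 0.178 (quartiles 0.075 and 0.276), and it was above 0 in 91.5% of these windows. HCT116 passed 0.35 in the 124 members (8.15%), lay between 0.15 and 0.35 in 746 (49.0%) and was under 0.15 in size in 646 (42.4%). It was -0.15 or less in 6 (0.394%). At most of these windows the HCT116 change thus had the RPE1 sign and stayed below the threshold, and at few was it -0.15 or less. The windows were chosen for large changes in RPE1, so the smaller HCT116 sizes cannot be read as a difference between the lines. The share of windows with the same sign over all windows is not given here.

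The members were close to the other RPE1 transitions in median size of change. Both groups were chosen for passing the threshold in both RPE1 sets, so this closeness follows in part from that choice. It cannot be read as a property of the members. The size of the change had a median of 0.550 in the members, against 0.557 in the other RPE1 transition windows, in RPE1 set 1. In RPE1 set 2 it was 0.396 in the members, against 0.383 in the others. At the 646 windows where HCT116 was nearly flat, its library C share had a median of 0.194, and it was below an equal share of the 3 libraries in 73.5% of them, against 62.6% of all windows. RPE1 was below an equal share in 30.8% of these 646 windows in set 1 and in 35.4% in set 2. The windows were chosen where library C changed in RPE1, so the RPE1 shares follow in part from that choice. They cannot be set against the HCT116 share as a difference between lines, and their all-window shares are not given here.

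In the other direction, at the 587 windows past the threshold in HCT116, the change had a median of 0.296 in RPE1 set 1 and 0.231 in RPE1 set 2. It had the HCT116 sign in 90.3 and 91.7% of them, and it passed 0.35 in 42.6 and 21.98%. Among all windows with a change, 12.5 and 2.88% passed with either sign, listed in that order. Both RPE1 sets passed in 21.1% of the 587 windows, against 2.85% of all. A same-sign share for all windows is not given for this comparison either. These windows were chosen for large HCT116 changes, so the smaller RPE1 medians cannot be read as a difference between the lines.

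The longest falling region and the longest evenly covered rising one were neighbours on chromosome 13. The falling region, chr13:103000001-103200000 (hg19), was 200 kb long. At the window where the smallest of the 3 changes was largest, which is the one used for each named region, the library C share 200 kb to the high-C side was 57.1% in HCT116 (95% interval 52.3 to 61.8), 66.0% in RPE1 set 1 (62.1 to 69.7) and 57.1% in RPE1 set 2 (53.4 to 60.7). In that window it was 27.9, 27.3 and 28.9%, in the same order of sets. On the low-C side it was 12.96% in HCT116 (9.63 to 17.2), 5.20% in RPE1 set 1 (3.63 to 7.40) and 13.5% in RPE1 set 2 (11.2 to 16.1). The sets had nearly 1 level in that window. At the flanks HCT116 and RPE1 set 2 were also close, and RPE1 set 1 stood apart. In both RPE1 sets another window of the region had a larger change.

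The rising region, chr13:103550001-103700000, was 150 kb long. On its high-C side the share was 58.1% in HCT116 (53.5 to 62.5), 71.5% in RPE1 set 1 (67.8 to 74.999) and 57.4% in RPE1 set 2 (53.7 to 60.9). Its low-C side stood at 15.0% in HCT116 (11.5 to 19.3), 3.67% in RPE1 set 1 (2.45 to 5.46) and 13.9% in RPE1 set 2 (11.6 to 16.6). The midpoint lay 31.8 kb nearer the low-C side in HCT116 than in RPE1, against 13.8 kb nearer the high-C side at the falling region. Both values are less than 1 window. Between the RPE1 sets the difference was -27.1 kb at the rising region and -17.6 kb at the falling one.

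Between these 2 regions lay 350 kb low in library C, with high levels outside them. The lowest share of library C there was 12.96% in HCT116, 3.67% in RPE1 set 1 and 13.5% in RPE1 set 2. At those windows library B held 56.9% in HCT116, against 48.8% in RPE1 set 1 and 35.9% in RPE1 set 2. Library A held 30.1% in HCT116, against 47.6% in RPE1 set 1 and 50.7% in RPE1 set 2. The floor of this trough was led by B in HCT116 and by A in RPE1 set 2, and A and B were near each other in RPE1 set 1.

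**Figure D4:**
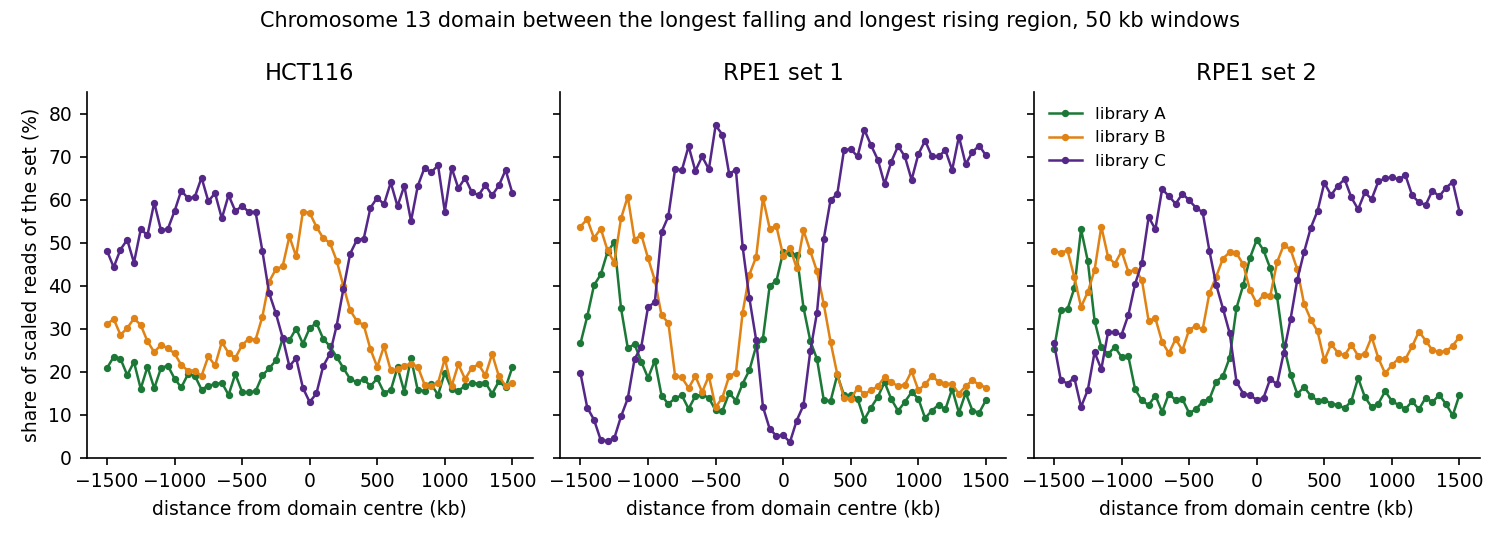
Share of libraries A, B and C (percent of scaled reads of the set) in 50 kb windows by distance in kb from the centre of the chromosome 13 domain between the longest falling and the longest evenly covered rising region. Library C fell to 12.96% in HCT116, 3.67% in RPE1 set 1 and 13.5% in RPE1 set 2.

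Other pairs of opposite regions bounded short domains as well. Among the evenly covered regions, 32 pairs of neighbours had opposite signs, and 6 of these pairs were under 3 Mb apart from centre to centre. The other pairs spanned up to 92.0 Mb. Changes of library C inside them that fell short of the rule were not counted, so they were not taken as single domains, and only the short ones are given here.

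Besides that on chromosome 13, 2 of them were low in library C. Over chr10:24650001-25450000 the mean share of library C was 18.5% in HCT116, 6.90% in RPE1 set 1 and 17.7% in RPE1 set 2. Over chr3:19750001-20300000 it was 25.8% in HCT116, 22.8% in RPE1 set 1 and 26.7% in RPE1 set 2. The chromosome 10 domain was low throughout and the chromosome 3 one less so.

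The other 3 short domains were high in library C. The mean share over chr2:209400001-210000000 was 50.4% in HCT116, 64.7% in RPE1 set 1 and 57.2% in RPE1 set 2. Over chr3:26050001-27150000 it was 58.2% in HCT116, 63.1% in RPE1 set 1 and 54.6% in RPE1 set 2. The longest of the 3, chr4:69450001-71250000, had 56.7% in HCT116, 66.8% in RPE1 set 1 and 57.4% in RPE1 set 2. HCT116 was below both RPE1 sets in the domains of chromosomes 2 and 4 and between them in that of chromosome 3.

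Further falling regions were named for their length or for the size of their smallest change. At chr2:127400001-127500000 the change was -0.443 in HCT116, -0.624 in RPE1 set 1 and -0.447 in RPE1 set 2. The midpoint lay 99.01 kb nearer the high-C side in HCT116, with -33.5 kb between the RPE1 sets. At chr2:105450001-105550000 it was -0.378 in HCT116, -0.646 in RPE1 set 1 and -0.487 in RPE1 set 2. This region had a large displacement of the midpoint, 160 kb, with -10.4 kb between the RPE1 sets. The window used had 24.3% of library C in HCT116, against 50.9% in RPE1 set 1 and 44.9% in RPE1 set 2, or 47.9% ± 4.25 over RPE1 (SD, n = 2).

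At chr6:125000001-125100000 the change was -0.398 in HCT116, -0.620 in RPE1 set 1 and -0.421 in RPE1 set 2. There the window used held nearly 1 level of library C, with 30.1% in HCT116, 32.1% in RPE1 set 1 and 29.7% in RPE1 set 2. At chr9:12450001-12500000 the change was -0.421 in HCT116, -0.514 in RPE1 set 1 and -0.407 in RPE1 set 2. The window itself held 44.5% in HCT116, against 62.2% in RPE1 set 1 and 52.3% in RPE1 set 2. The midpoint displacement was 55.3 kb at the chromosome 6 region and 52.4 kb at the chromosome 9 one. Between the RPE1 sets (set 1 minus set 2) it was -33.0 and -45.8 kb, in the same order. The shares in the window matched at the chromosome 6 region only.

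One further evenly covered rising region met the naming rule, chr9:104450001-104550000. Its change was 0.395 in HCT116, 0.586 in RPE1 set 1 and 0.410 in RPE1 set 2. The share at the window used was 25.5% in HCT116, 29.2% in RPE1 set 1 and 26.9% in RPE1 set 2.

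The remaining 5 regions met by the naming rule were unevenly covered. At chr4:48850001-49000000 the high-C side held 10410 reads in HCT116, 8576 in RPE1 set 1 and 14193 in RPE1 set 2, and the low-C side held 483, 503 and 1169, in the same order. The library C share was 64.0, 45.6 and 59.5% on the high-C side and 19.97, 2.85 and 16.6% on the low-C side. No gradual course was measured there in HCT116 and in RPE1 set 2, where the width was 0 kb. In RPE1 set 1 the width was 350 kb, with a slope of 1.47 share per Mb. At chr16:46550001-46700000 the high-C side held 19690 reads in HCT116, 18740 in RPE1 set 1 and 28747 in RPE1 set 2, with 62.8, 57.9 and 64.2% of them, once scaled, in library C. With 1 kb bins above 10 times the library's median left out, neither region held a member window. At the chromosome 4 region the change then was 0.281 in HCT116, 0.519 in RPE1 set 1 and 0.359 in RPE1 set 2, and at the chromosome 16 region it could no longer be computed. The other 10 named regions kept all their member windows under this setting.

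The other 3 uneven regions had milder departures. At chr17:21450001-21500000 the change was 0.464 in HCT116, 0.592 in RPE1 set 1 and 0.470 in RPE1 set 2. This change compares windows 200 kb to either side. The width, measured on the smoothed share, was 150 kb in each set and so covers a shorter stretch. At chr2:21300001-21400000 it was 0.446 in HCT116, 0.520 in RPE1 set 1 and 0.413 in RPE1 set 2, with a low-C side of 207, 146 and 434 reads. The region at chr8:2150001-2300000 had a change of 0.363 in HCT116, 0.425 in RPE1 set 1 and 0.371 in RPE1 set 2. The width measured on chromosome 17 was below any of the evenly covered regions, where the shortest was 250 kb. A width ends at a missing window or where the smoothed share turns, so it may not span the whole transition here. The windows chr17:21350001-21400000 and chr17:21550001-21600000, not adjacent to this region, were rising members too.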

How the data were processed

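The authors deposited 1 table per set with whole-number read counts in bins of 1 kb and 3 unnamed count columns. The hg19 build and the tools Bowtie2, SAMtools 1.2 and bedtools 2.25 are listed, per the submitters' processing notes, with no role or order. The table names in the labels point to removal of duplicates, and mapping settings are not given in the sources used here.

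Bins were summed to 50 kb windows of the 22 autosomes with at least 30 reads in each set. Each library was scaled to the same total over the kept windows, and shares were taken within a set, so that a copy number common to the libraries of a set cancels. Work was done in Python 3.11.15 with numpy 2.4.6, pandas 2.3.3 and matplotlib 3.10.9. The search was tested on simulated straight ramps with the same profile in the 3 sets. That setting does not show how well widths, or midpoints that differ between sets, are measured in these data. The named regions are, in each direction, the 4 longest and the 4 with the largest change in the set where it was smallest. The regions and rules were chosen with earlier results of these data known. No p-value was computed. GC content, gene density and gene names were not analysed here, because no genome or annotation of hg19 was used here. Alternatives covered window size, threshold, distance, minimum reads, scaling, depth, library and each set left out.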

Additional observations from a re-analysis of the deposited data

How the results depend on the processing

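Of 196 values recomputed under 19 settings, 132 stayed within the allowed range (1.5 times for counts, the SD of the RPE1 sets or 25 kb for the rest), 62 moved and 2 changed sign. The range was 4.49 points for library B at the centre and 0.427 for the summed reads. Both exceed the reported value itself, so staying within them says little about stability. Values are over all regions and averaged over the sets. In the evenly covered regions the RPE1 sets differed in sign for library B at the centre and for the summed reads, so those averages give no common direction. As reported there were 124 member windows in 94 regions of median length 50 kb, with a width of 550 kb, a slope of 0.876 share per Mb, flanks of 13.9 and 62.9% (low and high C), library B 3.18 points up at the centre, summed reads 0.11 higher (log2) on the high-C side, a midpoint shift of 55.3 kb and 40 pairs of opposite regions. Windows of 20 kb gave 426 windows, 314 regions, a length of 20 kb, a width of 207 kb, a slope of 1.44, a high-C flank of 54.4%, a shift of 19.4 kb and 112 pairs. Windows of 100 kb gave 47, 41, 100 kb and 733 kb for windows, regions, length and width, and 9 pairs. A threshold of 0.30 gave 470 windows, 259 regions and 143 pairs, and one of 0.40 gave 16 windows, 14 regions, a width of 500 kb, a shift of 18.6 kb and 2 pairs. A distance of 100 kb gave 8 windows, 5 regions, a width of 233 kb, library B 14.1 points up, 0 pairs and a shift of -7.31 kb, which is reversed and rests on those 5 regions. A distance of 300 kb gave 733 windows, 345 regions, a width of 600 kb, a shift of 94.4 kb and 175 pairs. With the mean of 4 windows on each side in place of single windows, 3 windows in 2 regions were left, with a length of 75 kb, a width of 325 kb, a slope of 1.802, a shift of 5.66 kb and 0 pairs, and library B and summed reads could not be computed. Scaling to the whole table gave a width of 517 kb. Without scaling there were 30 windows, 25 regions, a width of 467 kb, a shift of 34.1 kb and 4 pairs. Thinned to 6170299 reads a library, 130 windows were found, 92 of them among the 124, with a width of 517 kb, in 1 random draw. With extreme bins left out there were 132 windows in 100 regions, with 14 of the 124 lost and 22 gained. Library A with its sign turned gave 6 windows, 5 regions, a width of 483 kb, a share of 36.5% on the high side, library B 8.68 points up, a shift of 97.9 kb and 0 pairs. Leaving out 1 set at a time gave 129 to 1523 windows, 99 to 661 regions, lengths of 50 to 100 kb, widths of 525 to 575 kb, and 44 to 398 pairs; without RPE1 replicate 2 there were 250 windows, 163 regions and 70 pairs, without HCT116 1523, 661 and 398. The summed-read difference was reversed without RPE1 replicate 1, at -0.0167, and reached 0.259 without RPE1 replicate 2. A threshold of its own for each set at 2% of its windows, added after seeing the data, gave 62 regions, and 56 of its windows were among the 124. The cause of these moves was not tested. GC content and gene density were not run. No paired analysis was possible because no count column could be given to a fraction.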

Other observations

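On chromosome X, which the rule leaves out, the same measure could be taken in 3009 windows. The change was at least 0.35 in size in 32 of them in HCT116 (1.06%), in 45 in RPE1 set 1 (1.496%) and in 3 in RPE1 set 2 (0.0997%), and in 0 windows in all 3 sets. The share of windows past the threshold in HCT116 was near its autosomal share, and those of the RPE1 sets were lower than theirs.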
